A study of Mus musculus with 3 samples.

Results

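The messenger RNAs of 10 chemokine ligands, of 32285 genes in the count tables, were followed across the leukocytes of inflamed islets from NOD mice, a strain that develops autoimmune diabetes spontaneously. The genes were chosen by name: Ccl5, Ccl3, Ccl4, Cxcl9, Cxcl10, Cxcl16, Xcl1, Ccl22, Ccl8 and Cxcl2. The data were 3 single-cell 3′ RNA libraries of live CD45+ cells sorted from the islets of wild-type, untreated female NOD mice of 15 to 16 weeks by the study's methods, or 14 to 16 weeks by its legend. Each library pooled 2 to 3 mice and the work was done in 2 experiments, so the library was the replicate and no conditions were compared. Neither the mice of each library nor its experiment could be told from the labels.

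Each of 26142 cells, with at least 1000 UMIs (counted RNA molecules) and under 10% mitochondrial UMIs, was placed by raw UMIs of a few marker genes. CD8 T cells had a Cd3e UMI, at least 2 Cd8a and Cd8b1 UMIs and no Cd4 UMI. CD4 T cells had Cd3e and Cd4 UMIs and none of Cd8a, Cd8b1 or Foxp3, whereas regulatory T cells (Treg) had Cd3e and Foxp3 UMIs. B cells had at least 2 Cd79a UMIs and no Cd3e, and macrophages had at least 5 C1qa and C1qb UMIs, no Cd3e and at most 1 Cd79a UMI. There were 3199 CD8 T cells, 5858 CD4 T cells, 1671 Treg, 4936 B cells and 68 macrophages, together 60.2% of the cells. The macrophages were few in every library, at 31, 10 and 27 cells. A further 7 gates were placed on the remaining cells, among them natural killer (NK) cells (135), gamma-delta T cells (578), mature dendritic cells with Ccr7 and Fscn1 (74) and conventional dendritic cells with Flt3 (126), and 9409 cells met no gate.

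Markers outside the gates followed the labels. The summed level of Cd3d, Cd3g, Trac and Lck was 1919 to 3000 CPM in the 3 T cell classes and 0 to 31.7 CPM in macrophages, where CPM is the gene's share of all UMIs of a class in a library, scaled to counts per 1e6. Csf1r, the receptor of a macrophage growth factor, was at 312 to 457 CPM in macrophages and at most 8.67 CPM in any lymphocyte class, and Cd68, a lysosomal protein of macrophages, at 375 to 721 CPM and at most 12.6 CPM. The B cell list reached 408 to 1329 CPM in Treg, where 16.2% of cells were marked as possible doublets, against 2.94% of B cells. Ccl17, a marker of mature dendritic cells, was at 0 in the mature dendritic gate, so that name rests on its gate genes and the other markers. Some lists were higher under another label. Cd40lg and Cd5 summed to 118 to 189 CPM in CD4 T cells and 147 to 226 in Treg. Nkg7 and Ctsw summed to 462 to 983 CPM in CD8 T cells and 1341 to 2383 in NK cells. Itgax, Zbtb46, Cd209a and Clec9a summed to 249 to 269 CPM in the conventional and 290 to 436 in the plasmacytoid dendritic gate. Libraries shared 12, 18 and 29 cell barcodes in pairs, and held 33851381, 74775394 and 80806452 UMIs.

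Chemokines are small secreted proteins that bind G protein-coupled receptors and guide leukocytes into and through tissue. CCL3, CCL4 and CCL5 attract T cells and monocytes, and CCL3 and CCL5 bind CCR1. CXCL9 and CXCL10 are induced by interferons and recruit CXCR3-bearing T cells, which are central to islet inflammation in NOD mice. CXCL16 is made as a membrane protein that is shed and binds CXCR6, XCL1 attracts cross-presenting dendritic cells through XCR1, CCL22 acts on CCR4, and CXCL2 attracts neutrophils through CXCR2.

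The genes lie in a few clusters of the mouse genome (build GRCm38, the mm10 of the count tables, with GENCODE M21 annotation), and each is a protein-coding gene. On chromosome 11, Ccl5 (ENSMUSG00000035042) is at chr11:83525778-83530518, minus strand, Ccl3 (ENSMUSG00000000982) at chr11:83647844-83649355, minus, and Ccl4 (ENSMUSG00000018930) at chr11:83662584-83664683, plus. The stretch between Ccl3 and Ccl4 is 13228 bases. The same chromosome holds Ccl8 (ENSMUSG00000009185, chr11:82115185-82116799, plus) and Cxcl16 (ENSMUSG00000018920, chr11:70453983-70459984, minus). On chromosome 5 are Cxcl2 (ENSMUSG00000058427, chr5:90903871-90905938, plus), Cxcl9 (ENSMUSG00000029417, chr5:92321347-92328079, minus) and Cxcl10 (ENSMUSG00000034855, chr5:92346638-92348889, minus), the last pair 18558 bases apart. Xcl1 (ENSMUSG00000026573) is at chr1:164931644-164935527, minus, and Ccl22 (ENSMUSG00000031779) at chr8:94745590-94751699, plus. Cxcl10 lies within Art3, Xcl1 within Gm20743, and Cxcl16 overlaps Zmynd15 by 552 bases, each on the other strand. These neighbours had 122, 11 and 218 UMIs against 18800 for Cxcl10, 9136 for Xcl1 and 4175 for Cxcl16.

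The promoters of Cxcl9, Cxcl10 and Cxcl2 are shown because the first pair are adjacent on chromosome 5 and share a receptor, and Cxcl2 had the largest share of its UMIs in macrophages among the members that passed the count filter. Each line gives the 250 bases before the RefSeq start, from the RefSeq annotation of GRCm38.p6, at chr5:92348890-92349139, chr5:92328080-92328329 and chr5:90903649-90903898, the first pair read on the minus strand. Capitals mark matches to the core of the interferon-stimulated response element, GAAANNGAAA, or to the NF-kappaB consensus.
Cxcl10: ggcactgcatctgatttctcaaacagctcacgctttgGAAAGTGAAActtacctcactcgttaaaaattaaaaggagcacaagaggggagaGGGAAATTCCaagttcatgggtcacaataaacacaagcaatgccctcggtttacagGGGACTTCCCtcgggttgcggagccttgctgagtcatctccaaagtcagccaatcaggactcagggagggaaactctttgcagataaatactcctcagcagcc
Cxcl9: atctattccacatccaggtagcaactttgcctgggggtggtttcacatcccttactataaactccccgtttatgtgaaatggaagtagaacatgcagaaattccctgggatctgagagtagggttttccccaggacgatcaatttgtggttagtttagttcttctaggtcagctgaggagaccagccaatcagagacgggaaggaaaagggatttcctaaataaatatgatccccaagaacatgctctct
Cxcl2: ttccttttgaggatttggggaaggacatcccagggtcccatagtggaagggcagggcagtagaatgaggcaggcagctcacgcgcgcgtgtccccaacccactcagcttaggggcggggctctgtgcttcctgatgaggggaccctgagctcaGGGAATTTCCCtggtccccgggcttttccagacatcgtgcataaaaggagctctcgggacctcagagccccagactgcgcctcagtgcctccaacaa

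On both strands, the Cxcl10 window held 1 response element core, 213 to 204 bases before the start, and 2 NF-kappaB matches, at 159 to 150 and at 103 to 94 bases before it. The Cxcl2 window held 2 overlapping NF-kappaB matches, 1 on each strand, between 97 and 87 bases before the start. The response element core occurred in 2.98% and the NF-kappaB consensus in 3.90% of 32841 promoters of that length. The interferon-gamma activated site TTCNNNGAA was also searched and occurred in 7.02% of promoters. None of the 3 motifs matched in the windows of Cxcl9, Ccl3, Xcl1, Ccl22 or Ccl8. RefSeq promoters were matched for 7 of the 10 genes, not for Ccl5, Ccl4 and Cxcl16.

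Ccl5, the broad attractant of T cells and monocytes, was the member with the most UMIs, 314344 in all. In CD8 T cells it reached 4729, 5116 and 5689 CPM in libraries 1, 2 and 3 (5178 ± 483, SD, n = 3). CD4 T cells held 866, 1210.3 and 706 CPM (927 ± 258) and Treg 533, 862 and 788 CPM (727 ± 172). Macrophages held 2807, 4661 and 3733 CPM (3734 ± 927), and B cells 83.5, 51.5 and 69.6 CPM (68.2 ± 16.1). No library of CD8 T cells overlapped with a library of CD4 T cells or Treg, and B cells were lowest in each library. Outside these classes, NK cells held 10598, 9849 and 10001 CPM and gamma-delta T cells 5320, 3346 and 3028 CPM. The conventional dendritic gate held 22.8 to 71.7 CPM, whereas the mature dendritic gate ranged from 116 to 2973 CPM.

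The fit of summed counts (edgeR, 12140 genes, library as a block) called Ccl5 higher in CD8 than in CD4 T cells by a log2 fold change of 2.60 (SE 0.22, edgeR adjusted p = 1.4e-06), where 11.0% of all genes were called. It was 3.03 higher than in Treg (edgeR adjusted p = 2.6e-07), a comparison with 16.1% of genes called, and 6.21 higher than in B cells (edgeR adjusted p = 4.8e-11), with 48.7% called. CD4 T cells and Treg, next to each other in the order, were not separated (log2 0.43, edgeR adjusted p = 0.29, with 5.69% of genes called). CD4 T cells were called higher with no count filter (0.47, edgeR adjusted p = 0.014) and under the cell limits of the study (1.47, edgeR adjusted p = 0.0012), which keep cells with 200 to 5000 genes and fewer than 6000 UMIs, of which ribosomal RNA makes more than 5% and mitochondrial RNA less. CD8 T cells and macrophages differed by 0.60 (SE 0.21, edgeR adjusted p = 0.034, with 36.7% called). That call was lost without the block (0.081), under the other size factors (0.11), in DESeq2 (0.14), without library 1 (0.088) and without library 3 (0.16) and the median log2 difference of all genes in that comparison was itself 0.55, so the order of these classes was not settled.

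**Figure D1:**
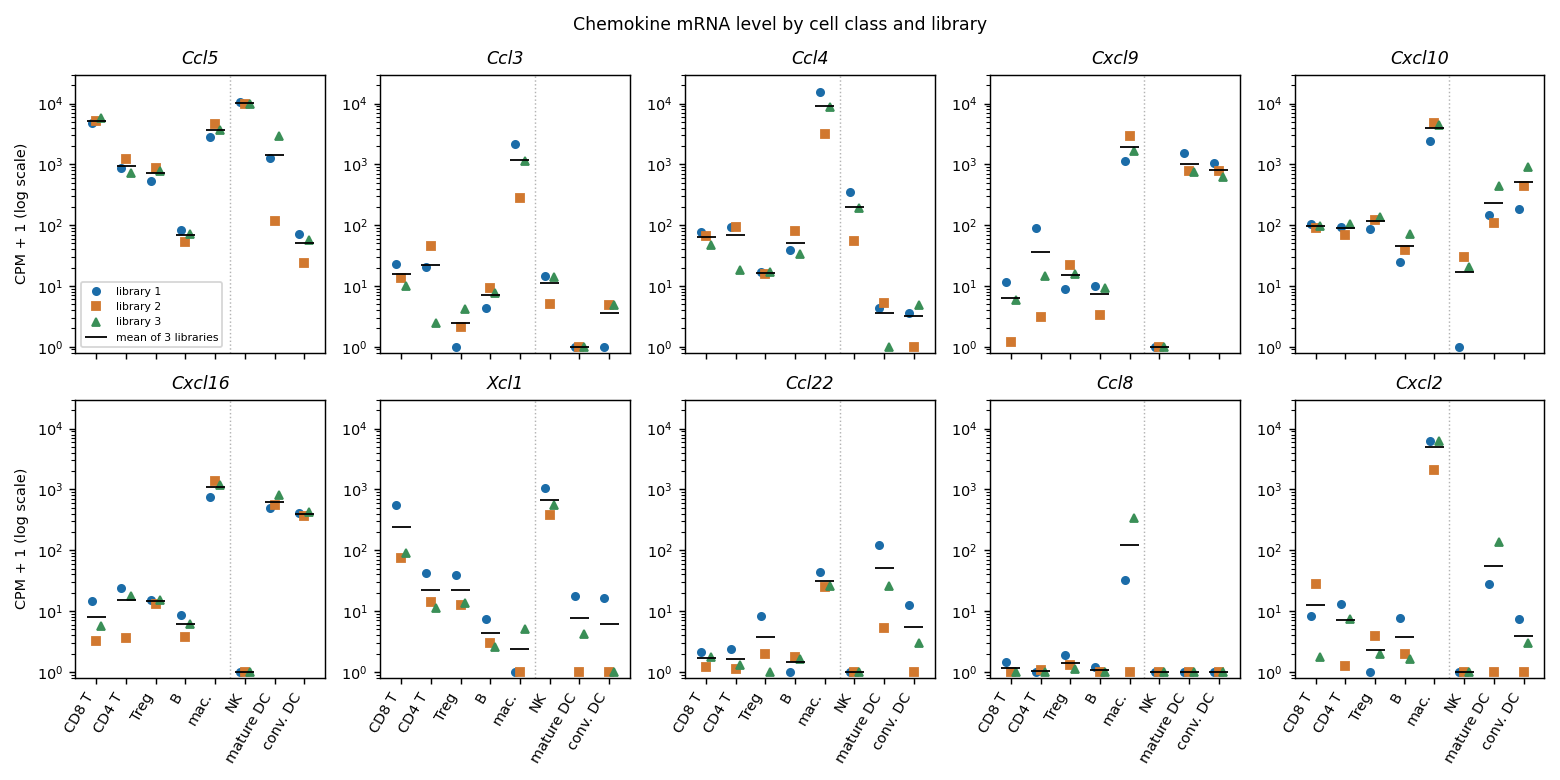
Level of each of the 10 chemokine ligands (CPM + 1, log axis) in the 5 classes and in the NK, mature dendritic and conventional dendritic gates. A symbol is 1 library (circle, square and triangle for libraries 1, 2 and 3) and the black line the mean of 3. Ccl5 is high in CD8 T, NK and macrophage columns, Xcl1 in CD8 T and NK cells, and the other 8 genes have their highest class of the 5 in macrophages.

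Ccl5 differed between classes in how many cells carried it and in how much each held. With every cell thinned to 1000 UMIs, so that depth was equal, 44.2% ± 5.63 (SD, n = 3) of CD8 T cells had a Ccl5 UMI, against 13.5% ± 1.02 of CD4 T cells and 19.3% ± 1.99 of Treg. The share was 92.2% ± 3.18 in NK cells, 63.4% ± 7.29 in macrophages and 2.05% ± 0.48 in B cells, a class that should lack the gene. Of 31 B cells with 10 or more Ccl5 UMIs, which held 76.1% of the class's Ccl5, 24 were marked as possible doublets, and the B cell level was 28.7 CPM with such cells removed, against 68.2. Without thinning the shares were 55.0% of CD8 T cells and 9.45% of B cells, at median depths of 6743 and 5742 UMIs. Cells with Ccl5 held on average 81.1 UMIs of it among CD8 T cells, 28.0 among CD4 T cells, 21.3 among Treg and 4.92 among B cells. In CD8 T cells, 1285 of 3199 cells (40.2%) carried 10 or more Ccl5 UMIs, and these held 99.2% of the class's Ccl5. CD8 T cells thus ranged from cells with abundant Ccl5 to cells in which it was low or not detected.

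Xcl1, whose receptor marks cross-presenting dendritic cells, had the same order of means as Ccl5 over CD8 T cells, CD4 T cells, Treg and B cells. It differed strongly between libraries. CD8 T cells held 549.8, 74.0 and 87.8 CPM, and CD4 T cells 41.1, 12.9 and 10.3 CPM. Treg held 38.7, 11.7 and 12.4 CPM and B cells 6.44, 1.99 and 1.53 CPM. Library 1 was the highest in each of these classes, and also in NK cells (1073, 374 and 559 CPM) and gamma-delta T cells (637, 137 and 156 CPM). Within each library CD8 T cells were above CD4 T cells, Treg and B cells, and below gamma-delta T cells. The immediate-early genes, induced within minutes of stimulation, Nr4a1 (79.0, 44.4 and 35.2 CPM) and Egr1 (39.5, 21.4 and 20.5 CPM) were also highest in library 1 among CD8 T cells. Nr4a1 was highest in library 1 in the other lymphocyte classes, NK cells and gamma-delta T cells too. Egr1 was not in Treg (30.0, 30.9 and 44.7 CPM). Of the further genes of this kind, Jun was not in CD4 T or B cells. Fos was not in gamma-delta T cells or in NK cells (115, 226 and 26.2 CPM in NK). These genes were chosen after their values were seen, and their part in the Xcl1 difference was not tested.

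With the library as a block, Xcl1 was higher in CD8 than in CD4 T cells by log2 3.25 (SE 0.19, edgeR adjusted p = 3.1e-08), in CD8 T cells than in Treg by 3.32 (edgeR adjusted p = 3.8e-08) and in CD8 T cells than in B cells by 5.88 (edgeR adjusted p = 4.3e-11). CD4 T cells and Treg were not separated (log2 0.07, edgeR adjusted p = 0.95), but were under the cell limits of the study (4.95, edgeR adjusted p = 0.0076). Both were above B cells, by 2.63 (edgeR adjusted p = 5.3e-07, 51.5% of genes called) and 2.56 (edgeR adjusted p = 2.2e-06, 48.4% called). The Treg difference was not called without the block (0.052) and had the opposite sign, at -2.22, under the cell limits of the study (edgeR adjusted p = 0.28). Macrophages held a single Xcl1 UMI, so no fold is given against them. Xcl1 sat in fewer cells than Ccl5: 7.99% ± 7.4 of thinned CD8 T cells and 30.9% ± 14 of NK cells had a UMI, against 0.142% of B cells. Of 88 CD8 T cells with 10 or more Xcl1 UMIs, 51 came from library 1, 16 from library 2 and 21 from library 3.

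Ccl3 and Ccl4, a pair of inflammatory attractants that activated macrophages and T cells secrete, were mainly macrophage transcripts by level. Ccl4 in macrophages was 15435, 3131 and 8707 CPM, and Ccl3 was 2125, 277 and 1125 CPM. Library 2, which had 10 macrophages, was the lowest for both. Ccl4 stood at 76.7, 64.7 and 46.7 CPM in CD8 T cells, 93.1, 92.9 and 17.2 CPM in CD4 T cells, and 38.5, 77.9 and 32.8 CPM in B cells. In Treg it stood at 15.7, 14.6 and 15.8 CPM, below every library of the other lymphocyte classes. Ccl3 ranged from 9.02 to 22.1 CPM in CD8 T cells, from 1.49 to 43.7 CPM in CD4 T cells, from 3.41 to 8.17 CPM in B cells and from 0 to 3.25 CPM in Treg.

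Every lymphocyte class was below macrophages for both genes. For Ccl4 the log2 difference was -7.12 from CD8 T cells (SE 0.63, edgeR adjusted p = 2.8e-07), and for Ccl3 it was -6.46 (SE 0.80, edgeR adjusted p = 9.9e-06). The corresponding values for CD4 T cells were -7.26 for Ccl4 and -6.08 for Ccl3, with 35.7% of genes called, and those for Treg -9.24 and -9.33, with 33.6% called. B cells were lower by -7.43 for Ccl4 and -7.58 for Ccl3, with 35.8% called. Among lymphocytes, Ccl4 was 2.12 higher in CD8 T cells than in Treg (SE 0.55, edgeR adjusted p = 0.015), a call lost without library 1 (0.066), and 1.82 lower in Treg than in B cells (log2 -1.82, edgeR adjusted p = 0.013). Of 22 CD8 T cells with 10 or more Ccl4 UMIs, 1 had a C1qa or C1qb UMI and 20 passed the stricter gates, which allow no Cd79a or C1q UMI in a T cell.

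Single cells decided some lymphocyte values of this pair. One CD8 T cell of library 2, with 25 C1q UMIs, held 467 Ccl4 and 115 Ccl3 UMIs, 30.2% and 35.0% of the class. One CD4 T cell of library 2, with no C1q UMI, held 914 Ccl4 and 324 Ccl3 UMIs, 37.1% and 36.7% of its class. The CD4 T cell mean of 67.7 CPM for Ccl4 thus rested on few cells, and 24 of 5858 cells carried 89.5% of the UMIs.

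Cxcl9 and Cxcl10 share a receptor and lie side by side. Both were highest of the 5 classes in macrophages, and they differed in the other classes. Cxcl9 in macrophages was 1131, 2933 and 1669 CPM (1911 ± 925), and the mature dendritic gate was close behind at 1536, 789 and 737 CPM. Conventional dendritic cells held 1059, 763 and 607 CPM, whereas NK cells had no Cxcl9 UMI in 135 cells, which allows a share of cells with a UMI of up to 2.22%. The mature dendritic gate overlapped with both, and every macrophage library was above every conventional dendritic library, a difference that was not tested. In lymphocytes Cxcl9 was 0.186 to 10.8 CPM (CD8 T), 2.06 to 90.0 CPM (CD4 T), 7.83 to 20.7 CPM (Treg) and 2.27 to 8.81 CPM (B).

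The lymphocyte Cxcl9 was held by few cells that also carried class II RNA. All 16 CD4 T cells with 10 or more Cxcl9 UMIs had 10 or more UMIs of H2-Aa, an MHC class II gene of antigen-presenting cells, against 11.2% of CD4 T cells as a whole, and they held 94.8% of the class's Cxcl9. The same held for 4 of 4 such CD8 T cells and 6 of 6 such Treg. Under the cell limits of the study Cxcl9 in CD4 T cells was 0.295 CPM against 35.3 CPM. In macrophages it was 125.5 CPM under those limits, against 1911 CPM, but with only 18, 1 and 4 macrophages left in libraries 1, 2 and 3. The H2-Aa UMIs were counted without thinning, and the CD4 T cell with the most Cxcl9 held 14462 UMIs against a class median of 5752. The part of such cells in the T cell values was not tested further. Against macrophages the fitted log2 differences of Cxcl9 were -8.90 for CD8 T cells, -6.54 for CD4 T cells, -6.98 for Treg and -8.38 for B cells, each with an edgeR adjusted p of at most 3.8e-05.

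Cxcl10 was also highest in macrophages, at 2458, 4851 and 4388 CPM (3899 ± 1269), yet it was spread through all lymphocyte classes. CD8 T cells held 104, 87.4 and 94.2 CPM, CD4 T cells 93.6, 68.0 and 104 CPM, and Treg 86.9, 119 and 137 CPM. B cells held 23.7, 38.2 and 70.7 CPM, and NK cells 0, 28.8 and 19.6 CPM. The T cell classes overlapped with each other, and B cells were lower in each library than any T cell class of that library. The differences from B cells were log2 1.19 for CD8 T cells (edgeR adjusted p = 9.3e-04), 0.95 for CD4 T cells (edgeR adjusted p = 0.0042) and 1.23 for Treg (edgeR adjusted p = 7.4e-04). The CD4 T cell call was lost without the block (0.06) and under the cell limits of the study (0.51). No T cell class differed from another at the threshold, except that under those limits CD4 T cells were called below Treg (log2 -2.19, edgeR adjusted p = 0.027, against -0.28). Macrophages were higher than CD8 T cells by log2 5.20, than CD4 T cells by 5.43, than Treg by 5.16 and than B cells by 6.38.

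In contrast to Cxcl9, few of the CD8 T cells rich in Cxcl10 carried class II RNA. There were 70 CD8 T cells with 10 or more Cxcl10 UMIs, 20, 28 and 22 by library, of which 6 had 10 or more H2-Aa UMIs (7.10% of all CD8 T cells did) and 62 passed the stricter gates. Among CD4 T cells 25 of 70 and among Treg 25 of 57 such cells had that much H2-Aa, more than the 11.2% and 25.2% of the whole classes. With stricter gates the mean Cxcl10 level was 95.4 CPM in CD8 T cells, against 95.2 CPM. Cells with Cxcl10 also had the interferon-induced antiviral gene Rsad2 more often, in thinned cells and in every class: 12.2% (19 of 156) against 1.00% in CD4 T cells, 14.5% (11 of 76) against 2.07% in Treg, 8.33% (7 of 84) against 0.247% in B cells and 68.3% (28 of 41) against 11.1% in macrophages. In CD8 T cells it was 5.11% (7 of 137) against 1.47%, but library 1 had no such cell among 32. Ifih1, a sensor of double-stranded RNA, was found in 29 of 41 macrophages with Cxcl10, against 7.41% of those without. In lymphocytes it rested on few cells: 2 of 137 CD8 T cells, 3 of 156 CD4 T cells, 2 of 76 Treg and 2 of 84 B cells with Cxcl10. None of these came from library 1, where CD4 T cells without Cxcl10 had it in 1.25%. Rsad2 and Ifih1 were looked at after they had come up among the genes most like Cxcl10, and no test was made.

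**Figure D2:**
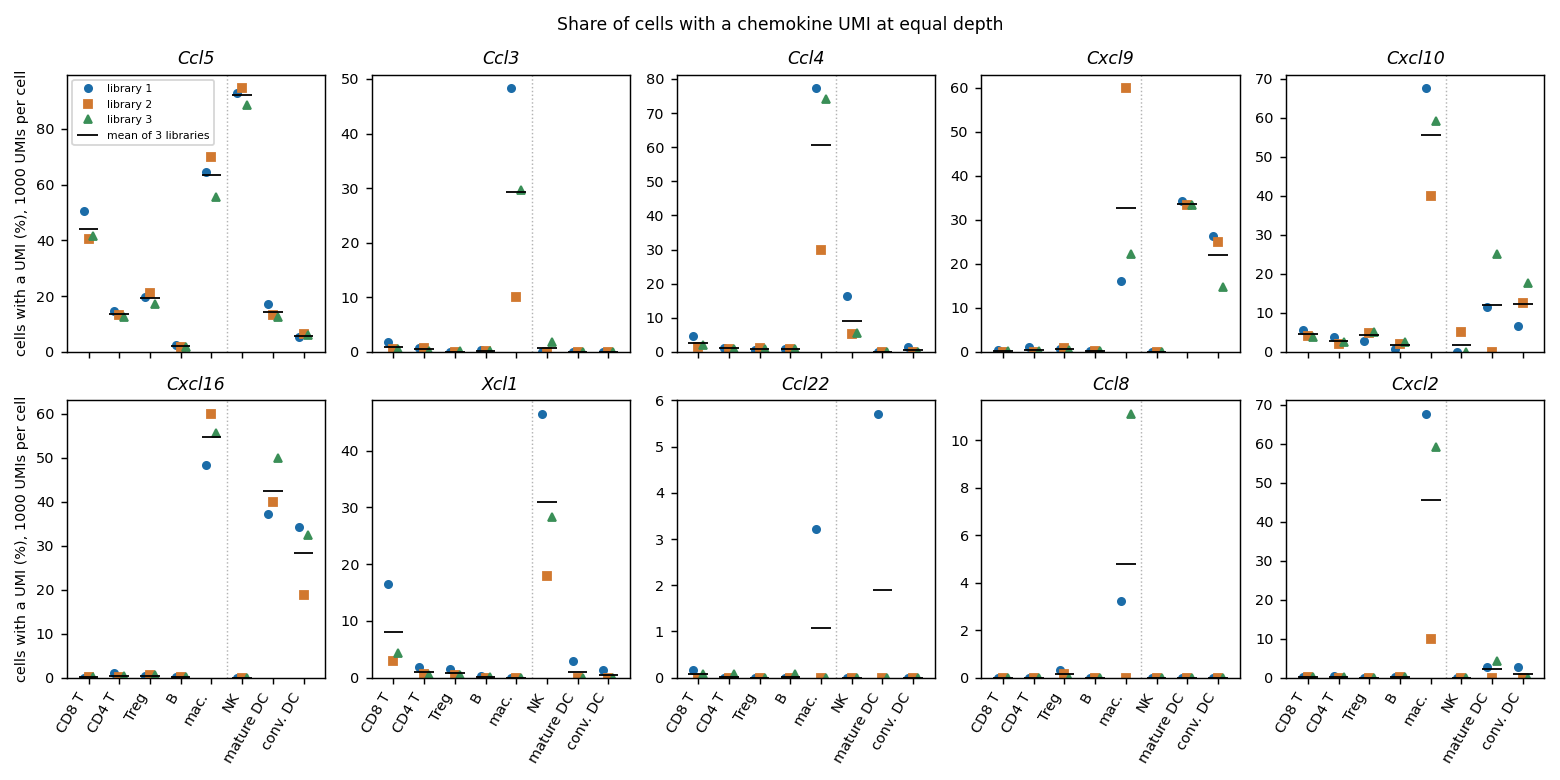
Percent of cells with at least 1 UMI of each gene after thinning every cell to 1000 UMIs, by class or gate. A symbol is 1 library and the black line the mean of 3. Ccl5 is found in 44.2% of CD8 T cells and 92.2% of NK cells on average, and Cxcl10 in 2.90% to 4.53% of the T cell classes.

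Cxcl16, the membrane-bound ligand of CXCR6, was highest in macrophages and in the mature and conventional dendritic gates. It reached 751, 1371 and 1162 CPM in macrophages (1095 ± 316), 494, 560.4 and 796 CPM in mature dendritic cells, and 404, 364 and 419.6 CPM in conventional dendritic cells. No UMI was found in NK cells or in the plasmacytoid dendritic gate, and B cells had the lowest mean of the 5 classes (5.19 CPM). Lymphocyte levels lay between 2.24 and 23.2 CPM, and all 22 CD4 T cells, 6 CD8 T cells and 6 Treg with 10 or more Cxcl16 UMIs had 10 or more H2-Aa UMIs. Macrophages were above the 4 lymphocyte classes by log2 6.38 to 7.68, each with an edgeR adjusted p of at most 1.0e-07. Cxcl16 was found in most of these cells, as 91.9% of macrophages and 89.5% of mature dendritic cells had a UMI before thinning, and 54.6% ± 5.9 and 42.4% ± 6.8 had one after it.

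Cxcl2, the neutrophil attractant, was at 6375, 2108 and 6370.5 CPM in macrophages, and 70.9% of its 4258 UMIs lay in those 68 cells. Of the lymphocyte values, 1 CD8 T cell that also carried 25 C1q UMIs held 279 of 323 Cxcl2 UMIs, and 1 B cell with 33 C1q UMIs held 71 of 92. With stricter gates, which leave out T and B cells with a C1q UMI, the Cxcl2 level was 0.347 CPM in CD8 T cells (11.5 CPM with all), 2.88 CPM in CD4 T cells (6.14), 0.870 CPM in Treg (1.26) and 0.474 CPM in B cells (2.81). The fitted differences from macrophages were -8.49 for CD8 T cells (SE 1.13, edgeR adjusted p = 2e-05), -9.89 for CD4 T cells, -11.56 for Treg and -10.87 for B cells.

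Ccl8, a monocyte attractant, and Ccl22, which attracts Treg and helper T cells, were rare. Ccl8 had 111 UMIs in all, of which 87 (78.4%) were in 10 macrophages, at 31.7, 0 and 334 CPM in the 3 libraries. It did not pass the count filter of the class fit. Ccl22 had 200 UMIs, and its level was 42.3, 23.8 and 24.7 CPM in macrophages and 4.31 to 119 CPM in mature dendritic cells, so those groups overlapped. The fitted Ccl22 differences of macrophages from the lymphocyte classes were log2 4.22 to 5.98 (edgeR adjusted p from 0.0015 to 0.011). The Treg call was lost without library 3 (0.082). Ccl22 passed the count filter through its level in macrophages, where it had 17 UMIs in all. The direction of these calls was thus largely fixed by the filter, and they are no independent support. Treg held 7.39, 0.949 and 0 CPM of Ccl22, of which 15 of 24 UMIs lay in 1 cell of library 1 that was marked as a possible doublet and had 7 Cd79a UMIs. The Treg mean was 2.78 CPM, and 0.270 CPM with doublets removed.

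Of the 9 members tested in the class fit, 2 were called between CD8 and CD4 T cells, where 11.0% of all genes were. There were 3 called between CD8 T cells and Treg (16.1% of all genes) and none between CD4 T cells and Treg (5.69% of all genes). With 9 genes, none called is not far from that last share. These counts depended on the setting. Between CD8 and CD4 T cells, Ccl4 was also called under the cell limits of the study (log2 1.34, edgeR adjusted p = 0.011) and Cxcl9 without library 2 (0.049). Cxcl9, Cxcl16 and Cxcl2 were also called there with no count filter, a setting that called 1824 of 20635 genes. Between CD8 T cells and Treg, Ccl3 was also called in DESeq2 (0.037), and Ccl3, Cxcl9, Cxcl16 and Cxcl2 with no count filter (2263 of 20635 genes called). Ccl4 was lost there without library 1 (0.066). Between CD4 T cells and Treg, Ccl4 (log2 1.98, edgeR adjusted p = 0.05) was called with doublets removed (2.75, edgeR adjusted p = 0.018), with RLE size factors and in DESeq2 (0.035). Ccl5, Ccl3, Ccl4, Cxcl10 and Xcl1 were called there under the cell limits of the study, where 802 of 10601 genes were called. Each T cell class against B cells called 3, 3 and 4 of 9 (CD8 T, CD4 T and Treg), a share below the 48.4% to 51.5% of all genes. These counts also moved with the setting: for CD8 T cells, Ccl3 and Ccl4 were called as well under the cell limits of the study (edgeR adjusted p = 0.03 and 0.00063). That setting called 4501 of 10601 genes. Against macrophages 9, 9, 9 and 8 of 9 were called for CD8 T cells, CD4 T cells, Treg and B cells, where the background was 33.6% to 36.7%. Ccl22 is counted in each, although it passed the count filter through macrophages, so its calls add no support. Xcl1 among these rests on 1 macrophage UMI, and its calls for CD4 T cells and Treg were lost without the block (0.39 and 0.43) and without library 1 (0.22 and 0.25). The median log2 difference of the members between CD8 T cells and macrophages was -6.46, beside 0.55 for all genes (0.41 with RLE size factors).

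**Figure D3:**
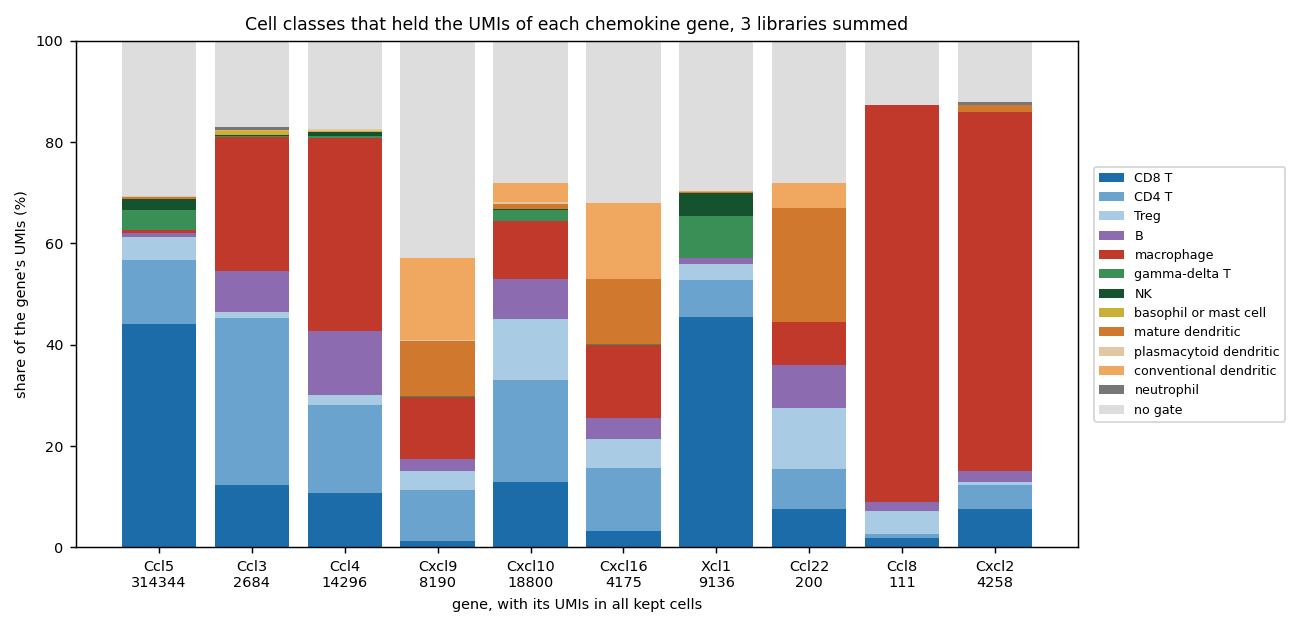
Share of each gene's UMIs, summed over 3 libraries, that lay in each class or gate (stacked bars, percent, starting at 0). Macrophages hold 70.9% of Cxcl2 but 11.4% of Cxcl10 and 12.1% of Cxcl9, and CD8 T cells hold 44.1% of Ccl5 and 45.5% of Xcl1.

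Because the classes differed in number, a high level did not mean that most of the RNA lay there. CD8 T cells held 44.1% of Ccl5 and 45.5% of Xcl1 UMIs. CD4 T cells held 32.9% and macrophages 26.5% of Ccl3 over all libraries, but 26.8% and 31.2% as means of the library shares, which ran from 4.21% to 61.8% and from 2.91% to 52.3%. CD4 T cells also held 20.2% of Cxcl10, against 13.0% in CD8 T cells and 11.4% in macrophages. The largest share of Cxcl10, 28.0%, lay in cells with no gate, as did that of Cxcl16, 32.1%. Macrophages held 38.0% of Ccl4, 14.3% of Cxcl16 and 12.1% of Cxcl9, and conventional dendritic cells 14.9% of Cxcl16 and 16.2% of Cxcl9. For Cxcl9 the largest share, 42.8%, lay in cells with no gate. Of that, 47.5% was in 183 cells with no CD3 UMI and 10 or more H2-Aa UMIs, at 1471, 715 and 621 CPM, a split made after the first values were seen. The UMIs were also concentrated: the 10% of cells with the most UMIs, among cells with the gene, held 80.2% of Ccl4, 73.8% of Cxcl2, 62.2% of Cxcl10, 49.7% of Ccl5 and 32.9% of Cxcl16 UMIs.

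The receptor PD1 (gene Pdcd1), a checkpoint examined in the study beside TIGIT, marks T cells that have met antigen. CD8 T cells with a Pdcd1 UMI (247, 352 and 467 cells) were compared with those without (327, 837 and 969). Ccl5 was 5841, 9069 and 9282 CPM with Pdcd1 and 3658, 3174 and 3638 CPM without. Xcl1 was 793.5, 124 and 149.7 CPM with and 315, 49.6 and 52.4 CPM without, and Ccl4 was 96.4, 163 and 90.9 CPM with and 57.7, 16.1 and 21.5 CPM without. Ccl3 was 33.7, 36.2 and 19.9 CPM with and 10.8, 0.69 and 2.83 CPM without. For these 4 genes every library was higher on the Pdcd1 side. The Ccl5 sides did not overlap across libraries. The Ccl4 and Ccl3 values of library 2 contain the cell with 25 C1q UMIs described above, and with stricter gates, which leave it out, they were 33.0 against 15.5 CPM for Ccl4 and 4.67 against 0.815 CPM for Ccl3. Each library was then still higher on the Pdcd1 side, but the sides overlapped across libraries, since library 1 held 63.4 CPM of Ccl4 and 12.03 CPM of Ccl3 without Pdcd1.

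Over 9706 genes, 14.4% were called in this split, and 5 of 7 members tested. The log2 differences were 1.03 for Ccl5 (SE 0.11, edgeR adjusted p = 3e-04), 1.23 for Xcl1 (SE 0.08, edgeR adjusted p = 1.7e-05), 1.96 for Ccl4 (SE 0.32, edgeR adjusted p = 0.0026) and 2.99 for Ccl3 (SE 0.43, edgeR adjusted p = 0.0013). Cxcl9, at 6.09, 0.283 and 0.497 CPM with Pdcd1 and 15.3, 0.139 and 7.23 CPM without, was called lower with Pdcd1 (log2 -2.10, edgeR adjusted p = 0.017) although library 2 went the other way on 1 UMI a side, and Cxcl10 was not called (log2 -0.15, edgeR adjusted p = 0.58). With stricter gates Ccl4 and Ccl3 were called at 1.30 (edgeR adjusted p = 2.8e-04) and 2.30 (edgeR adjusted p = 5.5e-05), and under the cell limits of the study Ccl4 was not called (log2 0.22, edgeR adjusted p = 0.70). The Cxcl9 call was lost in DESeq2 (0.063) and without library 3 (0.15). Cells with a Pdcd1 UMI were the deeper ones, at medians of 5865, 8656 and 7037 UMIs against 4896, 7309 and 6240.0. In an alternative, the Pdcd1 UMI was sought after thinning to 1000 UMIs, while the summed counts stayed unthinned. This left 98, 143 and 198 cells with Pdcd1. Ccl5 kept its difference (log2 1.02, edgeR adjusted p = 4.5e-05). Xcl1 (log2 0.03, edgeR adjusted p = 0.94), Ccl4 (0.59, edgeR adjusted p = 0.43) and Ccl3 (0.63, edgeR adjusted p = 0.60) were no longer called. The side without Pdcd1 then also held cells with a Pdcd1 UMI at full depth. These values therefore do not show whether the differences hold at equal depth.

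In CD4 T cells the same split gave Ccl5 at 1138, 2478 and 1281 CPM with Pdcd1 and 711, 363 and 310.3 CPM without, a log2 difference of 1.68 (SE 0.31, edgeR adjusted p = 0.011). Ccl4 was 164, 221 and 22.5 CPM with and 52.5, 7.35 and 13.6 CPM without (log2 2.30, SE 0.63, edgeR adjusted p = 0.047). Ccl3 was 28.4, 85.9 and 1.94 CPM with and 13.95, 15.5 and 1.17 CPM without (log2 1.77, edgeR adjusted p = 0.0059), and Xcl1 68.7, 15.4 and 21.3 CPM with and 25.4, 11.3 and 2.76 CPM without (log2 1.32, edgeR adjusted p = 0.047). All 4 were higher with Pdcd1 in each library, and they were the 4 of 8 members called, where 14.6% of genes were. Ccl3 was lost without library 2, which holds the cell of 324 Ccl3 UMIs (log2 0.81, edgeR adjusted p = 0.18), Ccl4 in DESeq2 (0.28), and Xcl1 in DESeq2 (0.25), without library 3 (0.072) and with stricter gates (0.074). The same cell held 914 of the 1506 Ccl4 UMIs on the Pdcd1 side of library 2. Without that library Ccl4 was still called, but at log2 1.07 (edgeR adjusted p = 0.0038). Cxcl10 was 108, 108 and 115 CPM with and 85.6, 41.4 and 95.8 CPM without, higher with Pdcd1 in each library but not called (log2 0.49, edgeR adjusted p = 0.13). It was called with the split on thinned cells (0.79, edgeR adjusted p = 3.3e-04) and with no count filter (0.023). It was also called without library 1 (0.025) and without library 3 (0.029), but not without library 2 (log2 0.14, edgeR adjusted p = 0.59). Without the library block neither split called a member (edgeR adjusted p from 0.11 for Ccl5 in CD8 T cells).

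Whether the Pdcd1 difference was unequal in CD8 and CD4 T cells was tested by an interaction term over 10950 genes, of which 0% were called by edgeR (808 genes at an unadjusted p under 0.05, 26 genes called by DESeq2). The CD8 minus CD4 value was -0.61 for Ccl5 (SE 0.40, edgeR adjusted p = 0.82), 1.37 for Ccl3 (edgeR adjusted p = 0.89), -0.43 for Ccl4 (edgeR adjusted p = 0.98) and -0.07 for Xcl1 (edgeR adjusted p = 1). Without library 1 the Ccl5 term was called (-1.04, edgeR adjusted p = 0.045), and with no count filter those of Ccl5, Ccl3, Cxcl9, Cxcl10 and Cxcl2 were, so whether the classes differ was not settled.

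**Figure D4:**
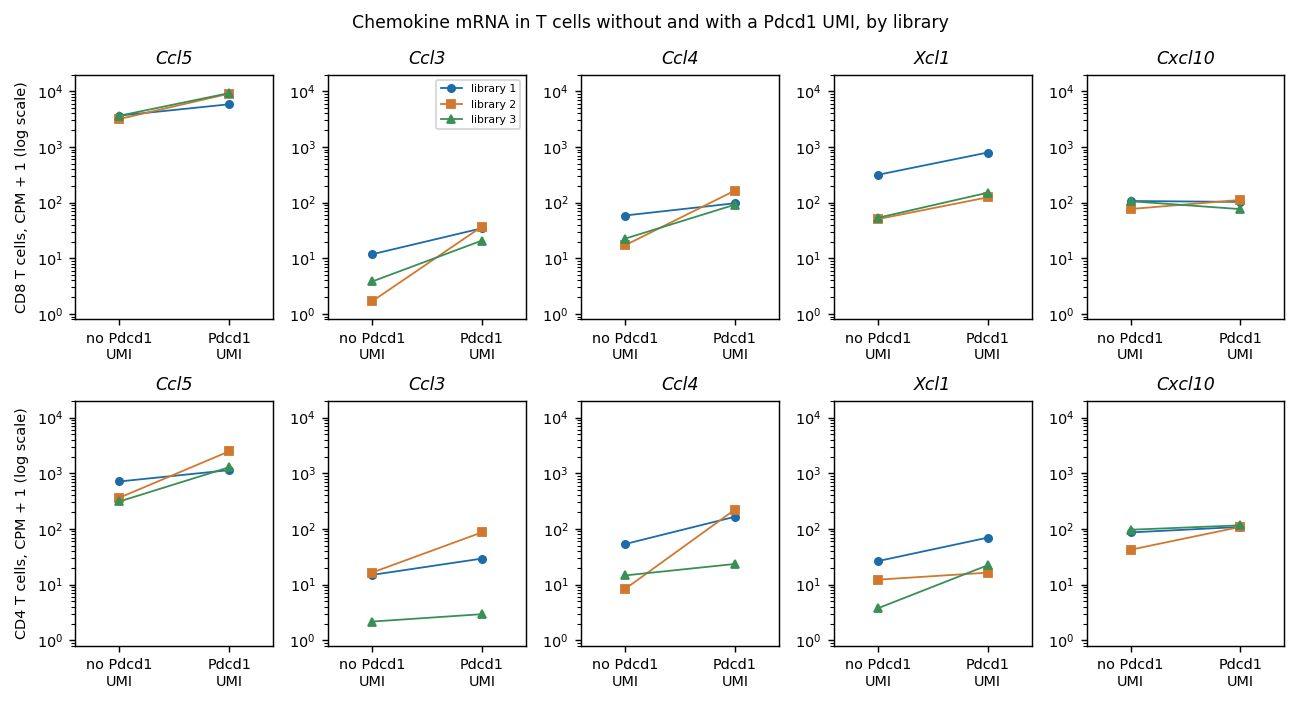
CPM of Ccl5, Ccl3, Ccl4, Xcl1 and Cxcl10 in CD8 T cells (top) and CD4 T cells (bottom) without and with a Pdcd1 UMI. A symbol is 1 library and a line joins both sides of a library. The first 4 genes are higher on the Pdcd1 side in each library of both classes, and Cxcl10 is not called in either class.

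Macrophages were split by Mrc1, the gene of a mannose receptor and a common marker of a macrophage subset. There were 16, 3 and 17 cells with an Mrc1 UMI and 15, 7 and 10 without, so the fit used libraries 1 and 3 (4 sums, 1710 genes). The median depth was 4528, 10961 and 7668 UMIs with Mrc1 and 7297, 15929 and 8371 without, so the Mrc1 side was the shallower one. Ccl4 was 30388, 12429 and 14651 CPM with Mrc1 and 5397, 31.7 and 878 CPM without. Cxcl2 was 12174, 8339 and 11063 CPM with and 2482, 31.7 and 191 CPM without, and Ccl3 was 4040.4, 1109.7 and 1965 CPM with and 839, 0 and 19.1 CPM without. Cxcl9 ran the other way, at 13.2, 951 and 79.7 CPM with Mrc1 and 1882, 3593 and 3762 CPM without. The sides did not overlap across libraries in any of these 4 genes, library 2 included.

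Cxcl10 was 3777, 19151 and 6554 CPM with Mrc1 and 1572, 84.6 and 1537 CPM without. Ccl5 was 4817, 11858 and 4081 CPM with and 1458, 2262 and 3275 CPM without. Cxcl16 was 645, 1395 and 877 CPM with and 821, 1363 and 1537 CPM without, and Ccl8 65.8, 0 and 406 CPM with and 8.83, 0 and 239 CPM without. Cxcl10 and Ccl5 were thus also without overlap between the sides, and the Cxcl16 sides overlapped.

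In the fit 14.7% of genes were called, and 6 of 8 members. The log2 differences were 3.91 for Cxcl2 (SE 0.25, edgeR adjusted p = 5.1e-50), 3.49 for Ccl3 (SE 0.31, edgeR adjusted p = 5.8e-26), 3.35 for Ccl4 (SE 0.20, edgeR adjusted p = 1.2e-55), 1.79 for Cxcl10 (SE 0.24, edgeR adjusted p = 1.1e-11), 1.12 for Ccl5 (SE 0.24, edgeR adjusted p = 6.9e-05) and -5.71 for Cxcl9 (SE 0.39, edgeR adjusted p = 9.6e-43). Cxcl16 (-0.48, edgeR adjusted p = 0.31) and Ccl8 (1.23, edgeR adjusted p = 0.11) were not called. These p-values rest on 4 sums from 2 libraries, too few to measure the spread between libraries, and their size moved with the setting. For Ccl4 the edgeR adjusted p was 4.1e-08 with RLE size factors, again at log2 3.35, and 8.2e-06 with stricter gates (log2 3.54). Without the block only Cxcl9 of these was called (edgeR adjusted p = 0.016, against 0.057 for Cxcl10 and 0.12 to 0.24 for Ccl4, Cxcl2, Ccl3 and Ccl5). DESeq2 did not call Cxcl2 (0.09) or Ccl5 (0.25). With Mrc1, Cxcl9 had 1 UMI in library 1 and 11 in library 3, so it passed the count filter through the side without Mrc1. The direction of the Cxcl9 call was thus largely fixed by the filter, and that call is no independent support.

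The cells on either side of Mrc1 differed in some other genes as well. Itgax, an integrin gene, was found in 2 of 36 cells with Mrc1 and 17 of 32 without, and Ccr7 in 0 of 36 and 9 of 32. Adgre1 was found in 30 of 36 and 18 of 32, and Lyz2 in 36 of 36 and 29 of 32, while Cd209a was at 0 on both sides. The macrophage genes Csf1r (31 of 36 and 30 of 32) and Cd68 (32 of 36 and 30 of 32) were frequent on both sides. The dendritic genes Flt3 (1 of 36 and 2 of 32) and Zbtb46 (1 of 36 and 4 of 32) were rare on both. The part of dendritic-type cells within the C1q gate in these differences was not tested.

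**Figure D5:**
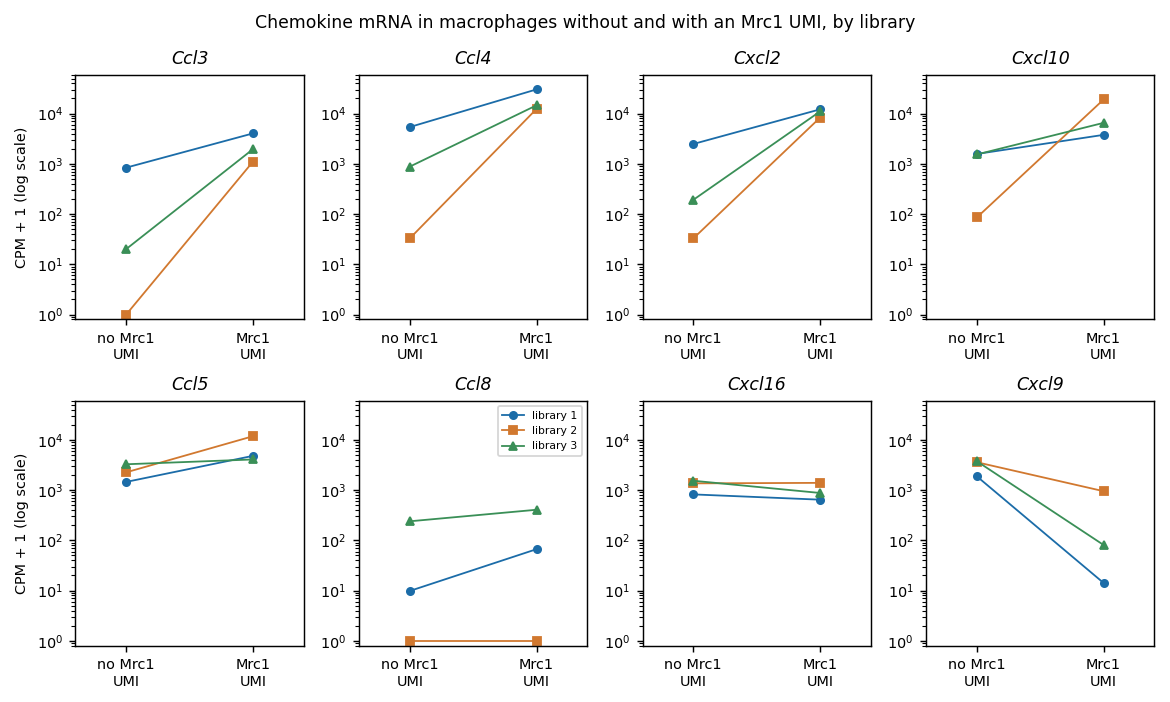
CPM of 8 chemokine ligands in macrophages without and with an Mrc1 UMI. A symbol is 1 library, and library 2 has 3 cells with and 7 without. Ccl3, Ccl4 and Cxcl2 are higher and Cxcl9 is lower on the Mrc1 side in all 3 libraries.

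Detection in the same cell was compared at 1000 UMIs per cell, as a description of cells that share libraries. In macrophages, Ccl3 was found in 23 of 38 cells with Cxcl2 (60.5%) and in 1 of 30 without (3.33%), and Ccl4 in 24 of 24 cells with Ccl3 and 52.3% of those without. Cxcl10 was found in 7 of 17 macrophages with Cxcl9 (41.2%) and 34 of 51 without (66.7%), and Cxcl16 in 52.9% on either side of Cxcl9. Ccl3, Ccl4 and Cxcl2 were thus often detected in the same macrophages, although library 2 had a single cell with Cxcl2 and no Ccl3 in it. The Cxcl9 and Cxcl10 counts had no shared direction, with Cxcl10 in 1 of 5, 3 of 6 and 3 of 6 cells with Cxcl9 and in 20 of 26, 1 of 4 and 13 of 21 without. In CD8 T cells, Ccl4 was found in 13 of 24 cells with Ccl3 (54.2%) against 1.86% of those without, and Ccl5 in 64 of 72 cells with Ccl4 (88.9%) against 41.7%. Cells with Xcl1 had Ccl3 in 4.12% and Ccl4 in 5.67%, against 0.532% and 2.03% without Xcl1. Library 1, with 95 of the 194 cells, had Ccl4 in 4.21% with and 4.59% without Xcl1, so the Ccl4 contrast came from the other libraries. The cytotoxic granule gene Nkg7 was found in 41.9% of CD8 T cells with Ccl5 against 9.34% without, and in 45.9% of those with Xcl1 against 21.8%, a gene looked at after its likeness to Xcl1 was seen.

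The receptors of these ligands were measured in the same libraries, as were the other ligands. Of 22 receptor genes 16 were tested in the class fit: 9 were called between CD8 and CD4 T cells (4 higher in CD8, Cxcr6 among them), where 11.0% of all genes were called. There were 10 called between CD8 T cells and Treg (1 higher in CD8, background 16.1%) and 6 between CD4 T cells and Treg, all higher in Treg (background 5.69%). Cxcr6, the CXCL16 receptor, was at 158.5 ± 8.11 CPM in CD8 T cells, 103 ± 11.3 in CD4 T cells, 92.0 ± 28.3 in Treg and 3.63 CPM in B cells, with 281 CPM in gamma-delta T cells. It was higher in CD8 than CD4 T cells (log2 0.72, edgeR adjusted p = 0.016) and on the Pdcd1 side of both (1.71, edgeR adjusted p = 6.8e-06, in CD8 and 2.08, edgeR adjusted p = 4.9e-04, in CD4 T cells). Cxcr3, the CXCL9 and CXCL10 receptor, was at 101 ± 12.7 CPM in Treg, 77.2 in CD4 T cells, 62.1 in CD8 T cells and 6.20 in B cells, and was not found in macrophages. CD8 T cells were below Treg for Cxcr3 (log2 -0.50, edgeR adjusted p = 0.013).

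Ccr1, which binds CCL3 and CCL5, was at 63.1 CPM in macrophages and 70.4 in conventional dendritic cells, and at most 6.41 CPM in lymphocyte classes. Xcr1 was highest in conventional dendritic cells (37.7 ± 26.1 CPM), followed by mature dendritic cells (14.5 CPM). Ccr4, the CCL22 receptor, was at 15.1 ± 3.08 CPM in Treg against 5.09 in CD4 T cells (log2 -1.55, edgeR adjusted p = 0.0027), 1.05 in CD8 T cells and 0 in macrophages. Cxcr2 had 21 UMIs in 13 cells of the neutrophil gate and at most 0.53 CPM elsewhere.

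Of 26 further ligand genes, 25 were in the tables and 15 were tested in the class fit. All 12 called between CD8 T cells and macrophages were higher in macrophages, as were 11, 11 and 10 for CD4 T cells, Treg and B cells, beside backgrounds of 36.7%, 35.7%, 33.6% and 35.8% of genes. A ligand rare in lymphocytes can pass the count filter through macrophages alone. The shared direction of these calls was therefore set in part by the filter and is no independent result. Examples are the CCR2 ligands Ccl7 (1682 ± 522 CPM in macrophages) and Ccl2 (1520.2 ± 928 CPM), the neutrophil attractant Cxcl1 (848.5 ± 684 CPM) and Pf4, known as platelet factor (558 ± 47.8 CPM). In the Mrc1 split, 5 of 9 such ligands tested were called (background 14.7%), all higher with Mrc1: Ccl12 (log2 5.10), Cxcl1 (3.54), Ccl2 (3.23), Ccl7 (2.89) and Pf4 (1.94). A ligand rare without Mrc1 can pass that count filter through the Mrc1 side alone. The shared direction may thus be set in part by the filter and is no independent result. The calls also rest on 4 sums from 2 libraries, too few to measure the spread between libraries.

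The genes whose levels were most like each member's were found by Pearson correlation of log2(CPM + 1) over 30 sums of 10 classes or gates, which share their libraries. This is a description across units with no test. The nearest were Pde2a for Ccl5 (r = 0.90), C1qc for Ccl3 (0.86), Mpp1 for Ccl4 (0.81), Bcl2a1a for Cxcl9 (0.95), Ifih1 for Cxcl10 (0.87), Spire1 for Cxcl16 (0.96), Prf1 for Xcl1 (0.90), H2-M2 for Ccl22 (0.90), Hamp for Ccl8 (0.96) and Cxcl1 for Cxcl2 (0.96). Nkg7 and Klra1 followed Prf1, the perforin gene, for Xcl1. Prxl2b and Rsad2 followed Ifih1, a sensor of double-stranded RNA, for Cxcl10. Il1rn and Gm34084 followed for Cxcl16, Gas2l1 and Tbc1d9 for Cxcl9, and Nupr1 was among those for Cxcl2.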

How the data were processed

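The authors deposited raw UMI counts per gene and cell for 3 libraries, made by Cell Ranger 6.0.1 on mm10 per the submitters' processing notes, from live CD45+ islet cells (10x 3′ chemistry). The deposited counts were used as they stand. Counts were summed per library and class, where a sum had at least 10 cells, and divided by the class total for CPM. The 59 cells that met both the CD8 T and Treg rules were placed in Treg. Sums were tested by edgeR 4.0.16 (quasi-likelihood, filterByExpr, TMM, library as a block, R 4.3.3), with Benjamini-Hochberg adjustment over all genes tested and a threshold of 0.05. The SE of a log2 difference was derived from the test, as its absolute value over the square root of the F statistic. P-values measure the spread between pooled libraries, except in the Mrc1 split, where 4 sums from 2 libraries are too few to measure it. The library pairs the sums because its classes come from the same mice. Deviations from class means correlated at 0.0273 to 0.680 between classes of 1 library and at -0.567 to 0.362 between libraries. The deviations of a class cancel over its 3 libraries. The values between libraries thus follow largely from those within 1 library and are no separate evidence.

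Shares were taken after thinning to 1000 UMIs, which left out no cell. Doublets were kept. The 7.6% of cells with the highest Scrublet score (scanpy 1.11.5) were removed in an alternative. The other alternatives were no replicate block, RLE size factors, DESeq2 1.42.0, no count filter, each library left out, stricter gates, the cell limits of the study (200 to 5000 genes, fewer than 6000 UMIs, ribosomal RNA above 5%, mitochondrial RNA below 5%), thinning to 2000 UMIs and splits on thinned cells. In the last, thinning decided only whether a cell had a UMI of the splitting gene, and the summed counts were unthinned. The fits were tested on simulated data.

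The members, gene lists and tests were chosen with earlier results of these data known. The text names the members, other chemokine ligands and receptors at 50 CPM or more or binding a member, and the 3 genes most like each member. Counts of cells with 10 or more UMIs, Rsad2, Ifih1 and Nkg7 in cells with a ligand, immediate-early genes, genes either side of the Mrc1 split, levels by Pdcd1 with stricter gates and the division of cells with no gate were added after values were seen. Intervals for counts of 0 cover counting error only (3 counts). Some genes of these lists are not reported here.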

Additional observations from a re-analysis of the deposited data

How the results depend on the processing

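Macrophages were few (68 cells), which limits every comparison with them. The 10 cells that a sum needs were reached in 1 library under the cell limits of the study and in 2 with stricter gates. Of the members' fitted differences under all alternatives, 1068 kept their side of the threshold, and 49 lost and 53 gained a call. For 1 called difference the sign reversed: Xcl1 in Treg minus B cells, log2 -2.22 under the cell limits of the study. The 1068 include differences that were not called and changed sign, such as the Ccl3 interaction (1.37, and -2.77 with the split on thinned cells). Causes were not tested.

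Counts of genes called without the replicate block were 422 (main 1336) for CD8 minus CD4 T cells, 739 (1957) for CD8 T minus Treg, 3833 (5911) for CD8 T minus B, 105 (691) for CD4 T minus Treg, 4071 (6248) for CD4 T minus B, 3801 (5875) for Treg minus B, 1 (1401) for CD8 T by Pdcd1, 1 (1596) for CD4 T by Pdcd1 and 32 (251) for macrophage by Mrc1. Under the cell limits of the study they were 722 for CD8 minus CD4 T, 1412 (4461), 1452 (4333), 1298 (4082) and 1373 (4346) for CD8 T, CD4 T, Treg and B minus macrophage, 736 for CD8 T by Pdcd1 and 18 (0) for the interaction. DESeq2 called 628 genes for CD8 T by Pdcd1, 804 for CD4 T by Pdcd1, 45 for macrophage by Mrc1 and 26 for the interaction. With no count filter there were 1157 calls for CD4 T minus Treg, 153 for macrophage by Mrc1 and 198 for the interaction. Stricter gates gave 158 for macrophage by Mrc1 and 7 for the interaction, and the split on thinned cells 869 for CD8 T by Pdcd1.

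With each library left out in turn, the counts ran from 432 to 1653 for CD8 minus CD4 T, 728 to 2449 for CD8 T minus Treg, 3850 to 6435 for CD8 T minus B, 3021 to 3585 for CD8 T minus macrophage, 119 to 1113 for CD4 T minus Treg, 4087 to 6685 for CD4 T minus B, 2921 to 3491 for CD4 T minus macrophage, 3733 to 6234 for Treg minus B, 2661 to 3268 for Treg minus macrophage, 2915 to 3446 for B minus macrophage, 844 to 1800 for CD8 T by Pdcd1, 511 to 2956 for CD4 T by Pdcd1 and 0 to 175 for the interaction. The macrophage split could not be fitted without library 1 or 3, under the cell limits of the study or on thinned cells.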
